A study of Homo sapiens with 4 samples.

Results

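Keratins are the intermediate filament proteins of epithelial cells, and the 8 keratin genes described here are KRT7, KRT8, KRT18, KRT19, KRT23, KRT80, KRT81 and KRT86. They were picked by a list of gene symbols, with no threshold on a measured value, from the 60612 genes listed for each library, and all 8 were found. They are also 8 of the 54 keratin genes of the type I and type II families that the files list. The mRNA of 2 human hepatocellular carcinoma lines was sequenced to ask whether mRNA levels differ with the amount of the RNA-binding protein CCDC137. There was 1 library for each of 4 groups, so no difference below has a replicate check, no error can be given and no test was possible.

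The first group was Huh-7 cells overexpressing CCDC137 from a lentiviral vector, and the second was Huh-7 cells with the empty vector. The third was PLC/PRF/5 cells in which CCDC137 was knocked down with a guide RNA and inactive Cas9 fused to a KRAB repressor. The fourth was PLC/PRF/5 cells that the labels describe as carrying a control vector. All were stable lines selected with puromycin. Huh-7 was grown in DMEM and PLC/PRF/5 in MEM. The overexpression vector and the knockdown vector also differed, so that line, medium and vector cannot be told apart. Levels are FPKM, fragments scaled to the length of the transcript and to the mapped total, which are per length and can be compared between genes of a library. Each library was scaled to its own fragments and the lines were tabulated separately, so levels of the 2 lines are set side by side across 2 tables.

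A keratin filament is built from pairs of a type I and a type II protein, and neither type forms a filament alone. Hepatocytes make a single pair, KRT8 (type II) with KRT18 (type I), whereas the cells that line bile ducts add KRT7 (type II) and KRT19 (type I) to it. KRT7 and KRT19 are for this reason used in pathology to recognise duct cells and duct-like tumours. KRT23 is a type I keratin, KRT80 is a type II keratin of many epithelia, and KRT81 and KRT86 are type II hair keratins.

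The positions below are from GENCODE release 44 lifted to GRCh37, while the authors' build is not given in the sources used here. Of the members, 6 are on chromosome 12, namely the 5 type II genes and KRT18. KRT80 lies at chr12:52562780-52585798 on the minus strand, KRT7 at chr12:52626304-52645970 on the plus strand and KRT86 at chr12:52643084-52702947 on the plus strand. KRT81, at chr12:52679697-52685318 on the minus strand, lies wholly within the span of KRT86 on the other strand, with no exon base shared. KRT8 lies at chr12:53290971-53343738 on the minus strand and KRT18 at chr12:53342655-53346690 on the plus strand. This pair overlaps on opposite strands by 1084 bases, of which 525 are exon bases of both. KRT23 (chr17:39078952-39093898) and KRT19 (chr17:39679869-39684560) are both on the minus strand of chromosome 17. The transcripts used for the sequences have 9 exons, except for KRT18 with 7 and KRT19 with 6. Nothing in the sources used here says whether strand was used in the quantification, and without it reads from the shared bases of KRT8 and KRT18 cannot be told apart.

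The coding sequences of these genes are alike to different degrees, which bears on how far reads of 150 bases can separate them. KRT81 and KRT86 were 93.6% identical over 1454 aligned coding bases, with an identical run of 605 bases, longer than a read. The next lines show the 60 bases at coding positions 1249 to 1308 where they differ most. Positions are counted from 1 at the A of the start codon, and capitals mark the 14 bases of KRT86 that differ from KRT81.
KRT81, bases 1249 to 1308: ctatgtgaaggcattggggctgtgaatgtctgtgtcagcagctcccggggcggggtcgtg
KRT86, bases 1249 to 1308: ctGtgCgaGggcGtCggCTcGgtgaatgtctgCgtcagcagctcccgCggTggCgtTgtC

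The other type II members were less alike. KRT8 and KRT7 were 72.8% identical and KRT8 and KRT80 were 62.3% identical. The longest identical runs of these pairs were 41 and 65 bases, shorter than a read. Among the type I members, KRT18 and KRT19 were 62.6% identical and KRT19 and KRT23 were 61.3% identical. The longest run shared by type I members was 29 bases, in KRT19 and KRT23, and is shown with 15 bases on either side. Capitals mark bases that differ from KRT19, 6 in KRT23 and 13 in KRT18.
KRT19, bases 244 to 302: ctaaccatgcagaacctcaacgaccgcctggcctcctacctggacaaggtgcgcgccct
KRT23, bases 220 to 278: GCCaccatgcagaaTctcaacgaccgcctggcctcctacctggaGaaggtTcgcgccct
KRT18, bases 244 to 302: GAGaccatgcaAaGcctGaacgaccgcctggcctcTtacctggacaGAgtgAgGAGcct

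The labelled manipulation was seen in the libraries. CCDC137 was at 229 FPKM in overexpressing and 11.9 FPKM in empty vector Huh-7 cells, and at 0.771 FPKM in knockdown and 20.5 FPKM in control PLC/PRF/5 cells. The FPKM values of a library summed to between 276444 and 289684, and 11727 to 11903 genes reached 1 FPKM. Of 12 hepatocyte markers, 8 reached 1 FPKM in each Huh-7 library and 9 in each PLC/PRF/5 library. Albumin (ALB) was at 1142 and 1084 FPKM in overexpressing and empty vector Huh-7 cells but at 1.94 and 2.15 FPKM in knockdown and control PLC/PRF/5 cells. Of 8 blood markers, LYZ, lysozyme, was at 161 and 197 FPKM in overexpressing and empty vector Huh-7 cells and at 206 and 129 FPKM in knockdown and control PLC/PRF/5 cells, CD14 passed 1 FPKM in Huh-7 cells, and PTPRC was listed at 0 throughout. Of 7 keratinocyte markers, KRT10 passed 1 FPKM in all 4 libraries and DSG3 in both Huh-7 libraries, while KRT5, KRT14 and KRT1 were listed at 0 throughout. Of 9 fibroblast or stellate cell markers, whose summed level was 25.1 and 30.4 FPKM in overexpressing and empty vector Huh-7 cells and 1.46 and 1.21 FPKM in knockdown and control PLC/PRF/5 cells, only LUM reached 1 FPKM, in Huh-7, and the part of such markers in the keratin values was not tested.

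The hepatocyte pair dominated the keratins of both lines. KRT18, the type I partner, was at 265 and 313 FPKM in overexpressing and empty vector Huh-7 cells and at 345 and 348 FPKM in knockdown and control PLC/PRF/5 cells. KRT8, the type II partner, was at 166 and 207 FPKM in overexpressing and empty vector Huh-7 cells and at 175 and 167 FPKM in knockdown and control PLC/PRF/5 cells. KRT18 ranked between 67th and 88th and KRT8 between 121st and 143rd among all 60612 genes of a library. The pair held 96.8% and 97.1% of the summed FPKM of all 54 keratins in overexpressing and empty vector Huh-7 cells, and 88.3% and 88.5% in knockdown and control PLC/PRF/5 cells. KRT8 was the only member whose values overlapped between the lines, and 82.5% of 13857 genes likewise had values that did not overlap.

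Of the duct keratins, KRT19 was past 2-fold between the lines and KRT7 stayed low in both. KRT19, the type I duct keratin, was at 0.157 and 0.409 FPKM in overexpressing and empty vector Huh-7 cells, against 14.4 and 13.0 FPKM in knockdown and control PLC/PRF/5 cells. Both Huh-7 values lay below 1 FPKM and both PLC/PRF/5 values above 10 FPKM. KRT7, the type II duct keratin, was at 0.146 and 0.175 FPKM in overexpressing and empty vector Huh-7 cells, and at 1.11 and 0.964 FPKM in knockdown and control PLC/PRF/5 cells. KRT7 was thus near or below 1 FPKM in all 4 libraries, so that KRT19 held most of the duct keratin signal of PLC/PRF/5 cells. The ratio of KRT19 to KRT7 was 12.9 and 13.5 in knockdown and control PLC/PRF/5 cells. In bulk RNA, fewer cells with a keratin and less of its mRNA per cell cannot be told apart.

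**Figure D1:**
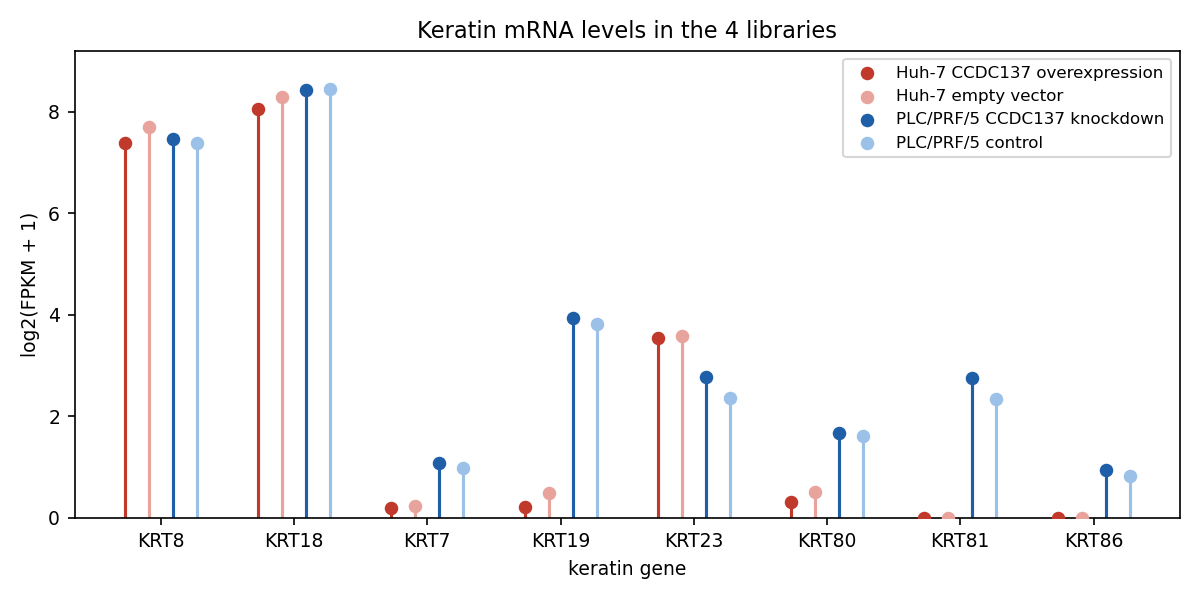
Level of the 8 keratins as log2(FPKM + 1) on the vertical axis, with 1 point and stem for each of the 4 libraries. KRT8 and KRT18 stand far above the other members in every library, KRT19 is at 0.157 and 0.409 FPKM in Huh-7 and 14.4 and 13.0 FPKM in PLC/PRF/5 cells, and KRT81 and KRT86 are listed at 0 in both Huh-7 libraries.

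KRT23 was the member with higher values in Huh-7 cells. It was at 10.7 and 11.0 FPKM in overexpressing and empty vector Huh-7 cells, against 5.85 and 4.13 FPKM in knockdown and control PLC/PRF/5 cells. It was the third most abundant member in both Huh-7 libraries and the fourth in both PLC/PRF/5 libraries. KRT80 was at 0.244 and 0.429 FPKM in overexpressing and empty vector Huh-7 cells, and at 2.20 and 2.08 FPKM in knockdown and control PLC/PRF/5 cells. LINC00592, a non-coding RNA gene on the other strand whose span covers all of KRT80 without a shared exon base, was at 0.0249 FPKM in overexpressing and listed at 0 in empty vector Huh-7 cells, and at 2.11 and 1.46 FPKM in knockdown and control PLC/PRF/5 cells.

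The hair keratins were seen in PLC/PRF/5 cells and listed at 0 in both Huh-7 libraries. KRT81 was at 5.73 FPKM in knockdown and 4.06 FPKM in control PLC/PRF/5 cells. KRT86 was at 0.926 FPKM in knockdown and 0.762 FPKM in control PLC/PRF/5 cells, below 1 FPKM in both. KRT81 exceeded KRT86 by a ratio of 6.19 in knockdown and 5.33 in control cells, and their sum was 6.65 and 4.82 FPKM. Because of the 605 identical bases, the division of reads between them is uncertain, while their sum is less affected by it. KRT83, another hair keratin, was 93.4% identical to KRT81 and was at 0.298 and 0.223 FPKM in knockdown and control PLC/PRF/5 cells.

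The order of levels was the same in the 2 libraries of a line. In both Huh-7 libraries it ran KRT18, KRT8, KRT23, KRT80, KRT19 and KRT7, with KRT81 and KRT86 listed at 0. In both PLC/PRF/5 libraries it ran KRT18, KRT8, KRT19, KRT23, KRT81, KRT80, KRT7 and KRT86. Without replicates it cannot be said which neighbours in these orders differ beyond their spread. KRT23 at 4.13 FPKM and KRT81 at 4.06 FPKM in PLC/PRF/5 control cells were the closest pair above 1 FPKM.

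Ratios within a library do not depend on how that library was scaled. The share of KRT7 and KRT19 in the summed FPKM of KRT7, KRT19, KRT8 and KRT18 was 0.0701% and 0.112% in overexpressing and empty vector Huh-7 cells, and 2.90% and 2.64% in knockdown and control PLC/PRF/5 cells. The 2 Huh-7 values were both far below the 2 PLC/PRF/5 values. The ratio of KRT8 to KRT18 was 0.628 and 0.659 in overexpressing and empty vector Huh-7 cells, and 0.507 and 0.478 in knockdown and control PLC/PRF/5 cells. Over all 54 keratins the ratio of type II to type I FPKM was 0.597 and 0.631 in overexpressing and empty vector Huh-7 cells and 0.459 and 0.429 in knockdown and control PLC/PRF/5 cells. Type I mRNA thus exceeded type II mRNA in all 4 libraries. KRT18 alone exceeded KRT8 in each of them.

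**Figure D2:**
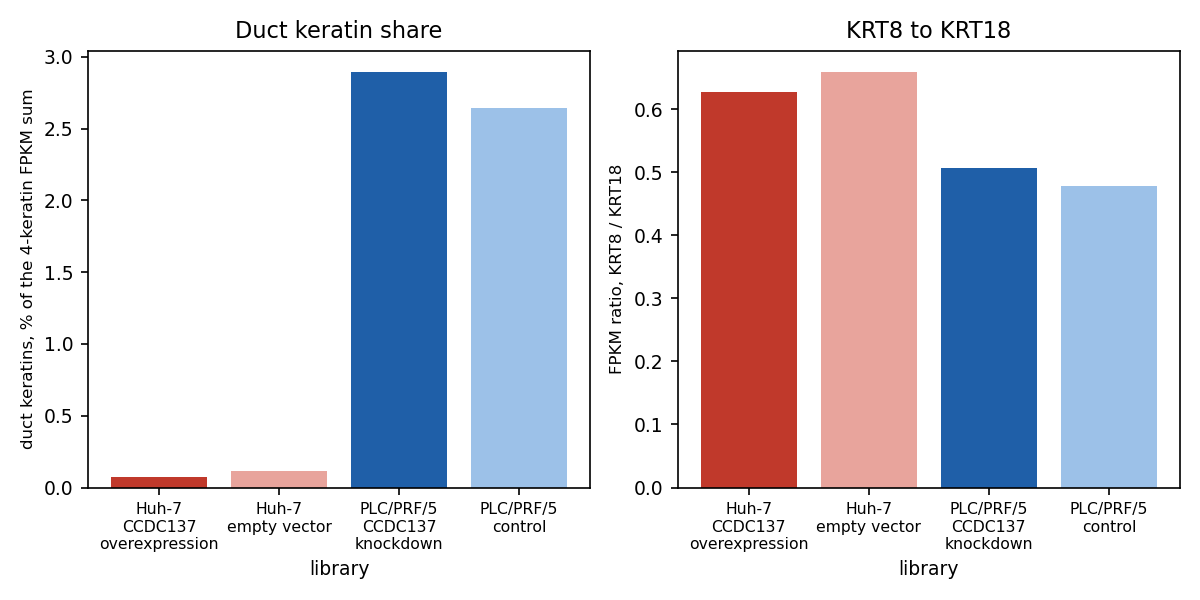
Left, the share (%) of KRT7 and KRT19 in the summed FPKM of KRT7, KRT19, KRT8 and KRT18. Right, the FPKM ratio of KRT8 to KRT18. Each bar is 1 library. The duct share is 0.0701% and 0.112% in Huh-7 and 2.90% and 2.64% in PLC/PRF/5 cells, and the KRT8 to KRT18 ratio is higher in both Huh-7 bars.

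KRT8 and KRT18 have many processed pseudogenes whose reads may be exchanged with those of the parent, which was not tested. The files list 51 KRT8 pseudogenes, and their FPKM summed to 10.1% and 10.6% of KRT8 in overexpressing and empty vector Huh-7 cells and to 11.0% and 10.1% in knockdown and control PLC/PRF/5 cells. The 67 KRT18 pseudogenes summed to 0.745% to 1.10% of KRT18, and the 5 KRT19 pseudogenes were listed at 0 throughout. The most abundant was KRT8P3, at 6.98 and 8.84 FPKM in overexpressing and empty vector Huh-7 cells and at 8.03 and 6.37 FPKM in knockdown and control PLC/PRF/5 cells. It was 97.1% identical to the KRT8 coding sequence. Second was KRT8P33, at 3.66 and 4.97 FPKM in overexpressing and empty vector Huh-7 cells and at 4.15 and 4.09 FPKM in knockdown and control PLC/PRF/5 cells. Its longest identical run with the KRT8 coding sequence was 133 bases and that of KRT8P3 was 129 bases, both shorter than a read of 150 bases. KRT8P10, KRT8P5, KRT8P12 and KRT8P45 also reached 1 FPKM in at least 1 library, and none of these 4 passed 2.06 FPKM.

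No member was past 2-fold on CCDC137 overexpression in Huh-7 cells. Differences here and below are log2((FPKM + 1)/(FPKM + 1)), and a gene counted as expressed at 1 FPKM or more in either library. Of the 3 members expressed in Huh-7 cells, 0 were past 2-fold, where 2.15% of all 12255 expressed genes were (1.07% higher and 1.09% lower). KRT8 differed by -0.31, KRT18 by -0.24 and KRT23 by -0.04, overexpression minus empty vector. These 3 had a median of -0.24, against 0.01 for all expressed genes, whose 10th and 90th percentiles were -0.27 and 0.30. KRT8 lay just outside that range, with 0.804 times the empty vector FPKM, and KRT18, with 0.845 times, lay within it. The duct keratin KRT19, below 1 FPKM in both libraries, differed by -0.28, with 0.383 times the empty vector FPKM, and passed 2-fold with a pseudocount of 0.01 FPKM, at -1.33. KRT7 and KRT80, also below 1 FPKM, differed by -0.04 and -0.20.

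No member was past 2-fold on CCDC137 knockdown in PLC/PRF/5 cells either. Of the 7 members expressed, 0 were past 2-fold, where 2.3% of all 12300 expressed genes were (1.2% higher and 1.1% lower). KRT8 differed by 0.07 and KRT18 by -0.01, knockdown minus control, and the sign of the KRT18 value turned when libraries were rescaled by the median ratio of genes. KRT19 differed by 0.14, KRT7 by 0.11 and KRT80 by 0.06. The largest values were those of KRT23, at 0.42, and KRT81, at 0.41, both above the 90th percentile of 0.25 of expressed genes. As ratios, KRT23 was at 1.42 times and KRT81 at 1.41 times the control FPKM, KRT86 at 1.21 times. The median of the 7 was 0.11, against -0.01 for all expressed genes.

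The lines differed in 4 of 6 expressed members, comparing Huh-7 empty vector with PLC/PRF/5 control cells. Past 2-fold were KRT23, higher in Huh-7, and KRT19, KRT80 and KRT81, lower in Huh-7, where 28.2% of all 13304 expressed genes were past 2-fold (13.6% higher and 14.6% lower in Huh-7). Their log2 differences were 1.23 for KRT23, -3.31 for KRT19 and -1.11 for KRT80. KRT19 and KRT80 had 0.0315 and 0.206 times the PLC/PRF/5 control FPKM, and KRT23 had 2.67 times. No ratio is given for KRT81, which is listed at 0 in Huh-7 cells. KRT8 and KRT18 differed by 0.31 and -0.15, within the 10th to 90th percentiles of -1.26 to 1.17. With all 4 libraries, KRT19, KRT80 and KRT81 were lower by 2-fold or more in each Huh-7 library than in each PLC/PRF/5 library, as were 10.5% of 13857 genes, while 9.53% were higher by that margin. KRT23 did not hold that margin in every pair, with a difference of 0.77 between the overexpressing and the knockdown library. The values of 7 of the 8 members did not overlap between the lines, and the same held for 82.5% of 13857 genes. KRT86 is among the 7 but below 1 FPKM in all 4 libraries, whereas the 13857 genes each reached 1 FPKM in some library.

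**Figure D3:**
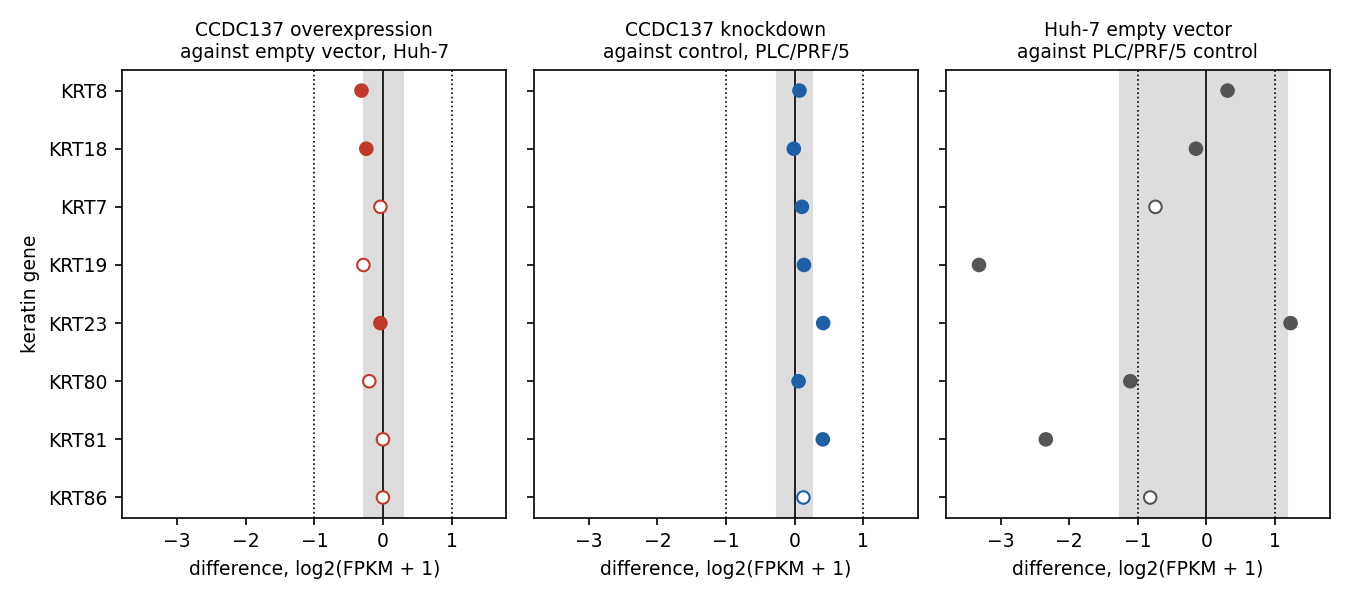
Differences in log2(FPKM + 1) of the 8 keratins in 3 comparisons, 1 panel each, first named minus second named. Filled points are members at 1 FPKM or more in either library, open points are members below it, the grey band spans the 10th to 90th percentile of all expressed genes and dotted lines mark 2-fold. No filled point of the first 2 panels passes 2-fold, and KRT19, at -3.31, lies farthest from 0 in the third.

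Keratins outside the 8 contributed little in Huh-7 cells and more in PLC/PRF/5 cells. Of the 54 keratins, 4 reached 1 FPKM in each Huh-7 library, against 10 in knockdown and 9 in control PLC/PRF/5 cells, and 35 were listed at 0 in all 4 libraries. KRT20, a type I keratin of gut epithelium, was listed at 0 in overexpressing and at 0.0506 FPKM in empty vector Huh-7 cells, against 27.0 and 29.7 FPKM in knockdown and control PLC/PRF/5 cells. KRT20 was thus above KRT19 in both PLC/PRF/5 libraries. KRT10, a type I keratin of the upper epidermis, was at 3.12 and 3.61 FPKM in overexpressing and empty vector Huh-7 cells and at 9.62 and 10.1 FPKM in knockdown and control PLC/PRF/5 cells. KRT15, a type I keratin of basal epidermis, reached 1.15 and 1.44 FPKM in knockdown and control PLC/PRF/5 cells. The 8 members held 99.3% of keratin FPKM in each Huh-7 library, and 93.4% and 92.8% in knockdown and control PLC/PRF/5 cells.

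**Figure D4:**
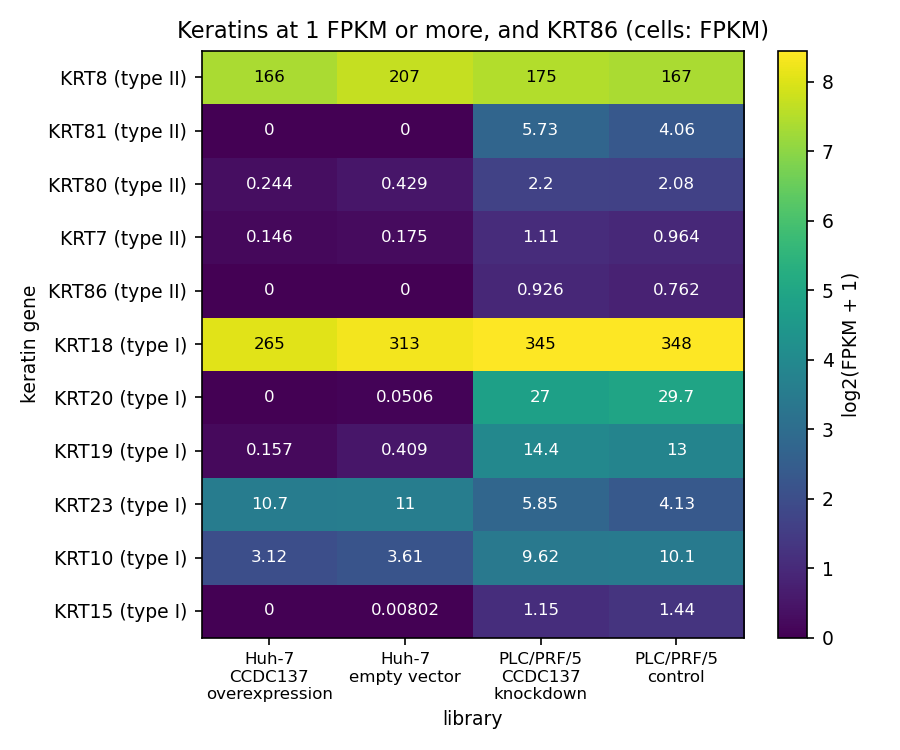
FPKM of the keratins that reached 1 FPKM in any library, and of KRT86, by library (columns), type II genes above type I genes. Colour is log2(FPKM + 1) and the figure in each cell is the FPKM. KRT20, KRT19, KRT81, KRT80 and KRT15 are below 1 FPKM in both Huh-7 columns and above 1 FPKM in both PLC/PRF/5 columns.

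Genes with the pattern most like each member were found as the smallest distance over 4 mean-centred log2(FPKM + 1) values, among 11471 protein-coding genes that reached 1 FPKM in 1 or more libraries. The 4 libraries are 2 from each of 2 lines, so that these patterns mainly set the lines apart. For KRT19, the nearest gene was TNNC1, the calcium-binding troponin of slow muscle and heart, at a distance of 0.0845, with 0 and 0.168 FPKM in overexpressing and empty vector Huh-7 cells and 11.4 and 10.2 FPKM in knockdown and control PLC/PRF/5 cells. DACT2, a Wnt pathway regulator, followed at 0.130, and FXYD5, a regulator of the sodium pump, at 0.145. For KRT23 the nearest were TMBIM1, CACTIN and ALDH3B1, at distances of 0.0572, 0.0591 and 0.0641. For KRT80 they were PTER, TMCC1 and ITGB5 at 0.0265, 0.0414 and 0.0487, and for KRT81 they were CYP2C18, MFGE8 and DZIP1 at 0.108, 0.129 and 0.168. Because 1 FPKM was added, genes near a low member can have other levels and other FPKM ratios. PTER was at 3.39 and 3.94 FPKM in overexpressing and empty vector Huh-7 cells, where KRT80 was below 1 FPKM. CYP2C18 was at 1.88 and 1.89 FPKM there, where KRT81 was listed at 0.

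The regulators and partners of these keratins were followed as lists, beside the same counts over all genes. Of 17 regulators of duct fate, 15 were expressed when Huh-7 empty vector was set against PLC/PRF/5 control cells, with 3 past 2-fold higher and 6 past 2-fold lower in Huh-7 and a median of -0.65. Over all expressed genes 13.6% were past 2-fold higher and 14.6% lower in Huh-7, with a median of -0.04. KLF5, a factor of many epithelia, was at 6.50 and 8.53 FPKM in overexpressing and empty vector Huh-7 cells and at 61.9 and 59.7 FPKM in knockdown and control PLC/PRF/5 cells. ELF3, an epithelial ETS factor, was at 9.49 and 12.7 FPKM in overexpressing and empty vector Huh-7 cells and at 42.8 and 42.5 FPKM in knockdown and control PLC/PRF/5 cells. SOX9, which marks duct cells, ran the other way, at 29.2 and 25.9 FPKM in overexpressing and empty vector Huh-7 cells and at 8.998 and 8.27 FPKM in knockdown and control PLC/PRF/5 cells. ONECUT2, a factor of liver and duct development, differed by 1.84, higher in Huh-7.

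Within the lines, TEAD1, the DNA-binding partner of YAP1, was the single duct regulator past 2-fold in either treatment. It was 1 of 15 expressed on overexpression and 1 of 14 on knockdown, where 2.15% and 2.3% of all genes were past 2-fold. It was at 8.71 FPKM in overexpressing and 3.05 FPKM in empty vector Huh-7 cells, and at 5.38 FPKM in knockdown and 12.9 FPKM in control PLC/PRF/5 cells. The list medians were 0.00 for overexpression and -0.02 for knockdown. The duct keratins KRT7 and KRT19 were below 1 FPKM in both Huh-7 libraries and were not counted on overexpression, and on knockdown they differed by 0.11 and 0.14.

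Of 12 regulators of hepatocyte fate, all 12 were expressed between the lines, with 5 past 2-fold higher and 2 past 2-fold lower in Huh-7 and a median of 0.75, against the same 13.6% and 14.6% of all genes. NR1H4, the bile acid receptor, was at 12.0 and 11.7 FPKM in overexpressing and empty vector Huh-7 cells and at 0.0766 and 0.0310 FPKM in knockdown and control PLC/PRF/5 cells. CEBPA, a factor of hepatocyte differentiation, was at 61.7 and 55.1 FPKM in overexpressing and empty vector Huh-7 cells and at 6.40 and 6.85 FPKM in knockdown and control PLC/PRF/5 cells. FOXA3, one of the 2 past 2-fold lower in Huh-7, was at 13.3 FPKM in overexpressing and 4.27 FPKM in empty vector Huh-7 cells. In knockdown and control PLC/PRF/5 cells FOXA3 was at 16.3 and 18.4 FPKM. It was the only one of the list past 2-fold in a treatment, overexpression, where 1.07% of genes were past 2-fold higher. Medians were 0.10 for overexpression and -0.09 for knockdown.

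**Figure D5:**
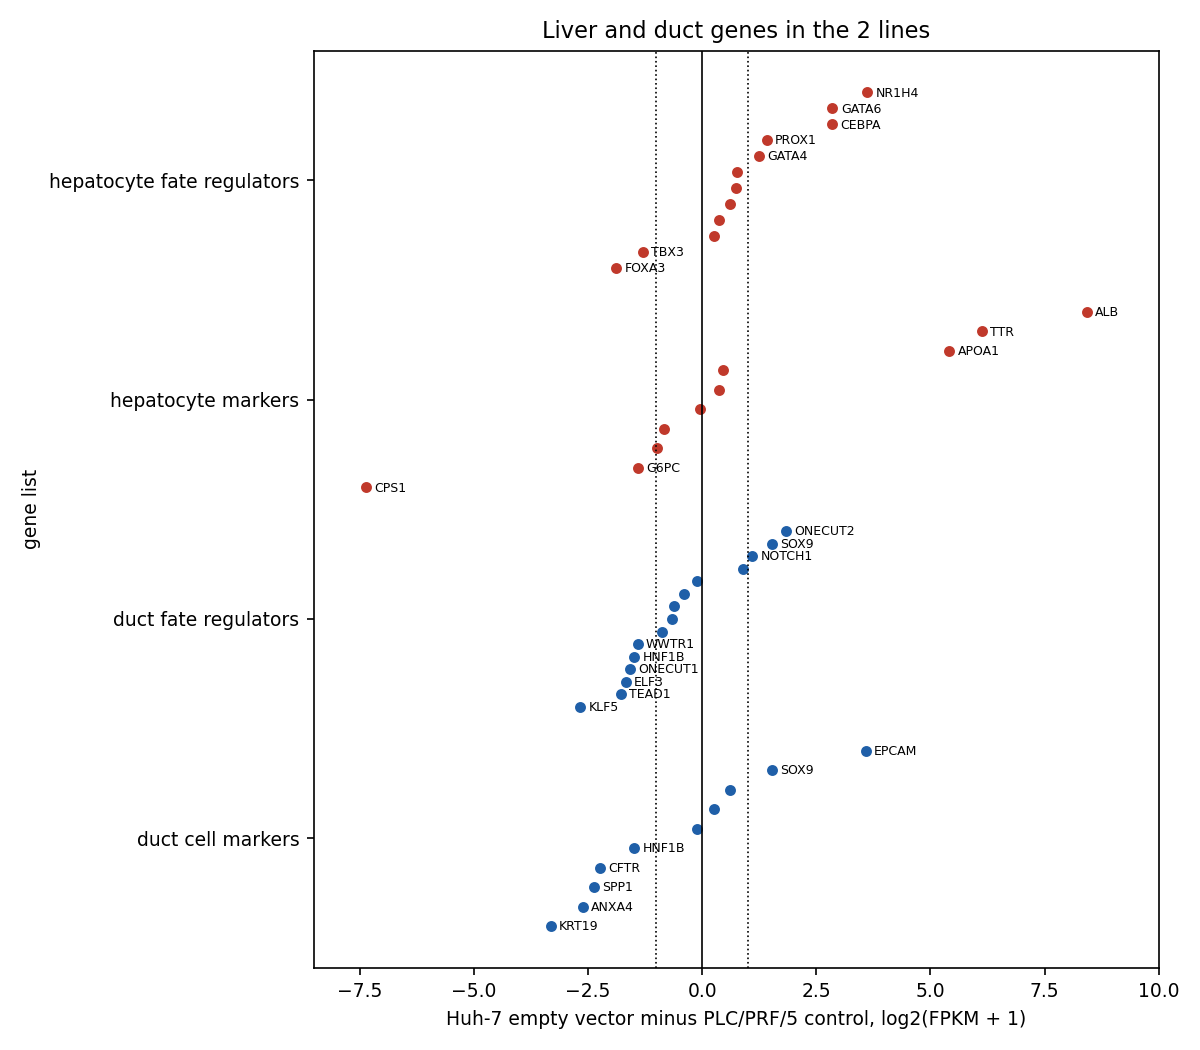
Differences in log2(FPKM + 1), Huh-7 empty vector minus PLC/PRF/5 control, for the expressed genes of 4 lists (rows), with dotted lines at 2-fold and names for genes past it. Duct regulators lie mostly left of 0, with a median of -0.65, and hepatocyte regulators mostly right of it, with a median of 0.75, while the markers spread both ways.

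Other duct cell markers did not all follow KRT19. The list of 16 markers includes KRT7 and KRT19 themselves. Of the 16, 10 were expressed between the lines, KRT19 among them, and KRT7 was not. In Huh-7, 2 were past 2-fold higher and 5, including KRT19, past 2-fold lower (13.6% and 14.6% of all genes). The median, with KRT19 counted, was -0.80. ANXA4, a calcium-dependent membrane-binding protein, was at 6.90 and 8.59 FPKM in overexpressing and empty vector Huh-7 cells and at 60.6 and 57.6 FPKM in knockdown and control PLC/PRF/5 cells. SPP1, osteopontin, was at 0.844 and 1.39 FPKM in overexpressing and empty vector Huh-7 cells and at 9.56 and 11.3 FPKM in knockdown and control PLC/PRF/5 cells. EPCAM, an adhesion protein of duct cells and progenitors, ran opposite to KRT19, at 9.01 and 11.0 FPKM in overexpressing and empty vector Huh-7 cells, against 0.175 FPKM in knockdown PLC/PRF/5 cells and listed at 0 in control cells. Of 12 hepatocyte markers, 10 were expressed between the lines, with 3 past 2-fold higher and 2 past 2-fold lower in Huh-7 and a median of 0.17. CPS1, a urea cycle enzyme, was at 0.899 and 0.831 FPKM in overexpressing and empty vector Huh-7 cells and at 309 and 301 FPKM in knockdown and control PLC/PRF/5 cells.

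Of 20 desmosome and cytolinker genes, which tie keratin filaments to cell junctions and to other filaments, 14 were expressed on overexpression and 15 on knockdown, and 0 were past 2-fold in either, where 2.15% and 2.3% of all genes were. Between the lines 3 of 15 were past 2-fold higher in Huh-7 and 2 lower, where 28.2% of all genes were past 2-fold. PERP, a desmosome protein, was at 22.5 and 21.8 FPKM in overexpressing and empty vector Huh-7 cells and at 61.4 and 55.2 FPKM in knockdown and control PLC/PRF/5 cells. DSP, desmoplakin, which binds keratin filaments, was at 25.8 and 24.9 FPKM in overexpressing and empty vector Huh-7 cells and at 35.8 and 37.8 FPKM in knockdown and control PLC/PRF/5 cells. PPL, periplakin, a cytolinker, was at 6.17 and 7.95 FPKM in overexpressing and empty vector Huh-7 cells and at 2.85 and 2.24 FPKM in knockdown and control PLC/PRF/5 cells.

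Of 16 genes whose products bind or modify keratins, none of those expressed was past 2-fold in either treatment, where 2.15% and 2.3% of all genes were. Medians were -0.10 for overexpression and 0.00 for knockdown. Between the lines 1 was past 2-fold higher in Huh-7 and 4 were past 2-fold lower, where 13.6% and 14.6% of all genes were. At any size of difference 7 of 16 were higher in Huh-7, and the median was -0.34, against -0.04 for all expressed genes. SFN, a 14-3-3 protein of epithelial cells, was at 0.292 and 0.391 FPKM in overexpressing and empty vector Huh-7 cells and at 32.8 and 31.0 FPKM in knockdown and control PLC/PRF/5 cells. TGM2, a transglutaminase that cross-links keratins, was at 30.7 and 30.6 FPKM in overexpressing and empty vector Huh-7 cells and at 98.7 and 93.3 FPKM in knockdown and control PLC/PRF/5 cells. CASP6, a caspase that cleaves KRT18 in dying cells, was the one past 2-fold higher in Huh-7, at 9.69 and 10.7 FPKM in overexpressing and empty vector Huh-7 cells and at 4.27 and 3.65 FPKM in knockdown and control PLC/PRF/5 cells.

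Of 16 other intermediate filament genes, 8 were expressed between the lines. In Huh-7, 2 were past 2-fold higher and 2 past 2-fold lower, where 13.6% and 14.6% of all genes were. On overexpression and on knockdown 0 of those expressed were past 2-fold, where 2.15% and 2.3% of all genes were. VIM, the vimentin of mesenchymal cells, was at 129 and 125 FPKM in overexpressing and empty vector Huh-7 cells and at 27.3 and 28.1 FPKM in knockdown and control PLC/PRF/5 cells. NES, nestin, a filament of progenitor cells, was at 95.8 and 81.2 FPKM in overexpressing and empty vector Huh-7 cells and at 1.26 and 1.61 FPKM in knockdown and control PLC/PRF/5 cells. INA, a neuronal filament, ran the other way, listed at 0 in both Huh-7 libraries and at 8.31 and 8.83 FPKM in knockdown and control PLC/PRF/5 cells. NEFH, the heavy neurofilament, was at 0.0146 FPKM in overexpressing and listed at 0 in empty vector Huh-7 cells, and at 0.900 and 1.00 FPKM in knockdown and control PLC/PRF/5 cells. The part of these filaments in the keratin differences was not tested.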

How the data were processed

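Total RNA of 4 cell libraries was used for mRNA sequencing after oligo(dT) selection, with dUTP marking of the second strand and paired reads of 2 × 150 bases on a NovaSeq instrument. The tools listed in the submitters' processing notes are StringTie 1.3.4d, HISAT2 2.0.4 and cutadapt. Build, annotation and use of strand were not given in the sources used here. Deposited values were FPKM per gene, scaled by the authors for the length of the transcript and for the library's mapped fragments. A listed value of 0.0001 stood for 0 and was set to 0. Depth is unknown, since counts of reads were not used here, and no interval was computed. The deposited tables also held the authors' own fold, log2 fold, p-value and q-value columns, which were not used.

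Differences were log2((FPKM + 1)/(FPKM + 1)) in Python 3.11.15 (numpy 2.4.6, pandas 2.3.3), for genes at 1 FPKM or more in either library, with 2-fold as the mark. Coding sequences and positions were from GENCODE 44 lifted to GRCh37 and were aligned with Biopython 1.88. Some sequence stretches are not reported here. The steps were checked on simulated data, with changes larger than 2-fold planted only in genes at 5 FPKM or more. That check does not cover members below 5 FPKM. Groups followed the sample titles and genotype labels. Besides the members, the genes named were CCDC137, the 3 most abundant and up to 4 past 2-fold of each list, the 3 genes nearest in pattern, and pseudogenes at 1 FPKM or more, of which a part is described. KRT83, PTPRC, KRT1, KRT5 and KRT14 were named outside this rule, after their values were seen. The symbols of the members and lists were chosen with earlier results of these data known, although no threshold on a value selects them. Alternatives were other pseudocounts, filters, scalings and folds, pseudogenes added to parents, and the overexpression library against the knockdown library, the last chosen after seeing the data.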

Additional observations from a re-analysis of the deposited data

How the results depend on the processing

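The counts of members past 2-fold stayed at 0 for overexpression, 0 for knockdown and 4 between the lines under the other pseudocounts, no filter on low values, the rescalings and a fold of 1.5. With a minimum of 5 FPKM, 2 of the 4 remained between the lines, KRT19 and KRT23, since fewer genes were counted. The overexpression library against the knockdown library, an alternative added after seeing the data, gave 3 (KRT19, KRT80 and KRT81). Of 104 alternative values of single members, 96 stayed on the same side of 2-fold. KRT19 on overexpression was at -1.33 with a pseudocount of 0.01 FPKM. KRT7 between the lines was at -1.95, -2.40 and -1.44 with pseudocounts of 0.1 and 0.01 FPKM and with libraries rescaled to a common sum, and KRT86, listed at 0 in Huh-7 cells, also passed 2-fold under these 3 settings. KRT23 was at 0.77 in the overexpression against the knockdown library. With KRT8 and KRT18 pseudogenes added to their parents, the KRT8 to KRT18 ratio was 0.683 and 0.723 in overexpressing and empty vector Huh-7 cells and 0.558 and 0.522 in knockdown and control PLC/PRF/5 cells. No paired analysis was possible because each group had 1 library. The depth is unknown, so the precision of values below 1 FPKM cannot be given, and with 1 library per group no difference has a replicate check.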
